A study of Mus musculus with 6 samples.

Results

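Genes for the enzymes and the chaperone that modify, fold and crosslink collagen were followed in mammary glands of Hpn-/- and WT mice. They were chosen by symbol, with earlier results of these data known, and all 10 were found among the 55450 genes of the deposited count table. They encode the lysyl oxidases Lox, Loxl1, Loxl2 and Loxl3 and the lysyl hydroxylases Plod1, Plod2 and Plod3. The others are P4ha1 and P4ha2, catalytic alpha subunits of collagen prolyl hydroxylase, and the collagen chaperone Serpinh1 (HSP47). P4ha3, another such subunit, is not a member and is given with the other pathway genes. The series profiled whole glands of virgin female FVB mice by sequencing total RNA after depletion of ribosomal RNA, with 3 Hpn-/- libraries and 3 WT libraries. Hpn encodes hepsin, a membrane-anchored serine protease of epithelia, and the Hpn-/- line was made with CRISPR/Cas9. Hpn-/- replicates 1 and 2 came from mice of 6 weeks and Hpn-/- replicate 3 from a mouse of 5 weeks. Among the WT mice, replicate 1 was aged 2 weeks, replicate 2 was aged 6 weeks and replicate 3 was aged 5 weeks. Genotype and age are therefore partly confounded, since the one mouse of 2 weeks is WT and the Hpn-/- mice are older on average. Neither the position of the disruption in Hpn nor the number of lines is given in the sources used here. In whole tissue, fewer cells of a type and less RNA per cell cannot be told apart.

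Collagen chains are hydroxylated on prolines and lysines in the endoplasmic reticulum while they are made. Proline hydroxylation stabilises the triple helix, HSP47 binds the folded procollagen and escorts it out of the reticulum, and lysine hydroxylation sets which crosslinks can form later. After secretion and trimming, the copper-dependent lysyl oxidases oxidise lysines and hydroxylysines of collagen and elastin, which then crosslink into fibres. In the mammary gland these genes are expressed mostly by stromal fibroblasts, and crosslinked collagen stiffens the matrix around the ducts.

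The libraries held 10971661 to 18807615 gene counts. A single locus annotated over ribosomal RNA, Gm42418, accounted for 54.0% to 61.5% of them. Members had between 27 counts (Loxl3 in Hpn-/- replicate 2) and 1965 counts (Serpinh1 in Hpn-/- replicate 3) per library, and all 10 passed the filter on low counts. Hpn itself had 4, 3 and 5 counts in Hpn-/- replicates 1, 2 and 3, against 12, 6 and 4 counts in WT replicates 1, 2 and 3, too few to check the genotype labels. The tissue label was checked with marker lists, and every listed gene was detected. Keratins and other epithelial markers summed to 37.6 to 55.5 CPM (read counts relative to the library total, after TMM correction for library composition) in Hpn-/- and 37.0 to 48.4 CPM in WT libraries. Adipocyte markers summed to 1077 to 1156 CPM in Hpn-/- and 1010 to 1153 CPM in WT libraries. Skeletal muscle markers, which mark tissue outside the gland, varied from 12.9 to 859 CPM among Hpn-/- and from 42.0 to 565 CPM among WT libraries.

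All 10 genes were lower on average in Hpn-/- than in WT glands, and none of the differences passed the test. The log2 fold changes, Hpn-/- minus WT, ran from -0.17 for P4ha1 to -1.05 for Plod2, with a median of -0.40. Over all 12520 genes tested, 49.1% had a negative log2 fold change and the median was 0.00. In edgeR's quasi-likelihood test with Benjamini-Hochberg adjustment over all genes, 0 of the 10 genes were called at an adjusted p under 0.05, where 0.016% of all genes were called. At an unadjusted p under 0.05, Lox, Loxl1, Loxl2, Plod3 and Serpinh1 were lower, 5 of 10, against 2.9% of all genes, and 0 of 10 were higher, against 3.98%. DESeq2 and limma-voom also called 0 of the 10, and each had 6 of 10 lower at that unadjusted threshold, against 1.67% and 3.09% of all genes. The 6-week Hpn-/- glands had the lowest levels of most members, and the 5-week Hpn-/- gland lay near its WT counterpart.

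RefSeq promoter sequences on GRCm38.p6 were at hand for Plod1, Plod3, Serpinh1, P4ha1 and P4ha2, 5 of the 10 genes, and are shown for the 4 that held the motif described here. P4ha1, P4ha2, Plod2 and Lox are known targets of hypoxia-inducible factors. The core of their response element can be ACGTG or GCGTG, and only ACGTG was counted here. The 250 bases before the start of transcription in RefSeq were searched for ACGTG on both strands (CACGT on the printed strand), and 4 of the 5 windows held it, against 16.6% of 32851 windows of the same length. The other motif searched, the GC box GGGCGG on both strands, was in 4 of 5 windows, against 32.7%. Neither share was matched for GC content, which was 55.6% (Plod3) to 70% (P4ha2) in the 5 windows. An excess of either motif over windows of like GC content was not tested. The windows are printed 5′ to 3′ in the direction of the gene, ending at the base before the start, with ACGTG or CACGT in capitals.
P4ha1 (chr10:59323046-59323295, plus strand): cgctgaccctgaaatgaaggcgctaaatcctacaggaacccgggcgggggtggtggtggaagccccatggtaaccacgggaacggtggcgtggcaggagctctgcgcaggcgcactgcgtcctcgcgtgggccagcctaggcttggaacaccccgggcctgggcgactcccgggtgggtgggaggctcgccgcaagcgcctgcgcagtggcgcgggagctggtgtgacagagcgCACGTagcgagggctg
P4ha2 (chr11:54100674-54100923, plus strand): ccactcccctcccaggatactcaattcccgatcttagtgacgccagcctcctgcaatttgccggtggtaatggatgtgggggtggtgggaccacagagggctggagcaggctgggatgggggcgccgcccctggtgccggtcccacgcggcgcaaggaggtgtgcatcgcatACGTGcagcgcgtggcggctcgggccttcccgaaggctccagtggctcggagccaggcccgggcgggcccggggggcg
Plod3 (chr5:136986769-136987018, plus strand): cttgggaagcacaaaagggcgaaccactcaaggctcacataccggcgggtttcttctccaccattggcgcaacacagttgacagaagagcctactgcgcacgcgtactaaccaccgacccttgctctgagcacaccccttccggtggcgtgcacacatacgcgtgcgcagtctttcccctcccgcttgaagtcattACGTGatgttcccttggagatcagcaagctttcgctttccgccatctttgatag
Serpinh1 (chr7:99353240-99353489, minus strand): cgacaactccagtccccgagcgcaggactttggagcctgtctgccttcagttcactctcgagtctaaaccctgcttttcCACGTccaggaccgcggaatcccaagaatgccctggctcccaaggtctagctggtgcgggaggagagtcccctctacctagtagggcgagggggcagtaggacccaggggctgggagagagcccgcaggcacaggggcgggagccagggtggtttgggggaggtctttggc
Counted from the first base of the match, the motif lay 16 bases before the start in P4ha1, 78 in P4ha2, 54 in Plod3 and 171 in Serpinh1. For P4ha2 the RefSeq start lies 829 bases inside the gene as GENCODE annotates it, so its window is not upstream of the annotated gene. The window of Plod1 held no ACGTG on either strand, and GCGTG was not counted in any window. A match describes the letters and says nothing of binding.

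Of the prolyl hydroxylase subunits, P4ha1 had the fold change nearest to 0 of the 10 members. P4ha1 (ENSMUSG00000019916.14, chromosome 10, 59323296 to 59373304) had 10.02, 8.69 and 9.36 CPM in Hpn-/- replicates 1, 2 and 3, against 12.6, 9.44 and 9.46 CPM in WT replicates 1, 2 and 3. The groups overlapped, and the 2-week WT library stood highest. Its log2 fold change was -0.17 ± 0.154 (standard error; adjusted p = 0.911), and it was -0.01 without that library. P4ha2 (ENSMUSG00000018906.14, chromosome 11, 54100095 to 54131665) had 4.29, 3.66 and 6.28 CPM in Hpn-/- libraries, against 7.11, 5.06 and 6.03 CPM in WT libraries. The 6-week Hpn-/- libraries were below every WT library, whereas the 5-week Hpn-/- library was above the 5-week WT library. Its log2 fold change was -0.34 ± 0.209 (standard error; adjusted p = 0.839). By level per length of exon, P4ha1 made up 75.2% ± 5.1 of the pair in Hpn-/- and 72.4% ± 1.8 in WT glands (SD, n = 3 each). P4ha3, which is not a member, was left out of these shares.

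Of the lysyl hydroxylases, Plod2 showed the lowest ratio of any member. Plod2 (ENSMUSG00000032374.14, chromosome 9, 92542223 to 92608428) encodes the enzyme that hydroxylates lysines of the collagen telopeptides. It had 51, 28 and 144 counts in Hpn-/- replicates 1, 2 and 3, against 181, 92 and 107 counts in WT replicates 1, 2 and 3. Scaled, these were 3.36, 2.56 and 8.38 CPM in Hpn-/- and 12.9, 8.78 and 8.96 CPM in WT libraries. The groups did not overlap, but the 5-week Hpn-/- library lay just under the WT libraries while the 6-week ones lay far below. Plod2 averaged 4.77 ± 3.15 CPM in Hpn-/- and 10.2 ± 2.31 CPM in WT glands (SD, n = 3 each). The ratio was 0.481 and the log2 fold change -1.05 ± 0.476 (standard error; adjusted p = 0.791). The highest Hpn-/- library held 3.27 times the lowest, the widest spread of any member within a genotype, against 1.47 times among WT libraries.

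Plod1 (ENSMUSG00000019055.15, chromosome 4, 147909753 to 147936767), which hydroxylates lysines of the triple helix, had 15.3, 16.5 and 24.8 CPM in Hpn-/- libraries, against 25.0, 19.4 and 25.9 CPM in WT libraries. The 6-week Hpn-/- libraries were the lowest of the 6, and the groups overlapped (log2 fold change -0.31 ± 0.180, standard error; adjusted p = 0.837). Plod3 (ENSMUSG00000004846.10, chromosome 5, 136987019 to 136996648), which also glycosylates hydroxylysines, had 11.7, 10.7 and 15.6 CPM in Hpn-/- libraries, against 16.98, 15.6 and 17.6 CPM in WT libraries. The 5-week Hpn-/- library and the 6-week WT library were level (log2 fold change -0.39 ± 0.151, standard error; adjusted p = 0.623). Per length of exon, Plod2 made up 11.4%, 9.001% and 17.9% of the summed Plod transcripts in Hpn-/- replicates 1, 2 and 3, against 24.2%, 20.5% and 17.7% in WT replicates 1, 2 and 3. Plod1 made up 43.2% ± 2.6 in Hpn-/- and 38.1% ± 2.4 in WT glands, and Plod3 44.0% ± 3.8 in Hpn-/- and 41.1% ± 2.7 in WT glands (SD, n = 3 each). The lower share of Plod2 was thus seen in the 6-week Hpn-/- libraries and not in the 5-week one. The difference in share was not tested.

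Serpinh1 (ENSMUSG00000070436.12, chromosome 7, 99345376 to 99353239), the collagen-specific chaperone, was the most abundant member. It had 79.3, 68.5 and 114 CPM in Hpn-/- libraries, against 131, 96.5 and 122 CPM in WT libraries. The 6-week Hpn-/- libraries were again lowest, and the 5-week Hpn-/- library exceeded the 6-week WT library. It averaged 87.4 ± 23.9 CPM in Hpn-/- and 117 ± 18.1 CPM in WT glands (SD, n = 3 each), and its log2 fold change was -0.42 ± 0.188 (standard error; adjusted p = 0.701).

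The lysyl oxidases were close to one another in their fold changes. Lox (ENSMUSG00000024529.14, chromosome 18, 52516067 to 52529867), the founding member, had 13.3, 11.5 and 21.4 CPM in Hpn-/- libraries, against 23.5, 18.7 and 22.0 CPM in WT libraries. Its log2 fold change was -0.46 ± 0.206 (standard error; adjusted p = 0.714). Loxl1 (ENSMUSG00000032334.10, chromosome 9, 58287738 to 58313186), which acts on elastic fibres, had 39.4, 38.9 and 55.6 CPM in Hpn-/- libraries, against 67.7, 50.5 and 64.0 CPM in WT libraries. In both genes the 6-week Hpn-/- libraries lay below every WT library and the 5-week one lay within the WT range. The log2 fold change of Loxl1 was -0.44 ± 0.164 (standard error; adjusted p = 0.613).

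Loxl2 (ENSMUSG00000034205.16, chromosome 14, 69609068 to 69695834), an oxidase of collagen IV and other substrates, had 12.7, 9.97 and 13.0 CPM in Hpn-/- libraries, against 19.6, 14.4 and 14.0 CPM in WT libraries. The groups did not overlap, and the log2 fold change was -0.43 ± 0.159 (standard error; adjusted p = 0.613). Loxl3 (ENSMUSG00000000693.10, chromosome 6, 83034173 to 83052562), the least abundant member, had 2.84, 2.47 and 3.72 CPM in Hpn-/- libraries, against 3.69, 3.72 and 4.19 CPM in WT libraries (log2 fold change -0.34 ± 0.210, standard error; adjusted p = 0.839). Loxl2 and Plod2 were the members whose libraries were all lower in Hpn-/- than in WT, 2 of 10, against 5.04% of all genes tested. Exons of Loxl3, Plod3, Plod2, Loxl2 and Lox overlap exons of a gene on the opposite strand (535, 529, 346, 301 and 30 bases), Htra2 and Znhit1 in the case of Loxl3 and Plod3. The strand setting of the counting is not given, so these counts are uncertain.

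**Figure D1:**
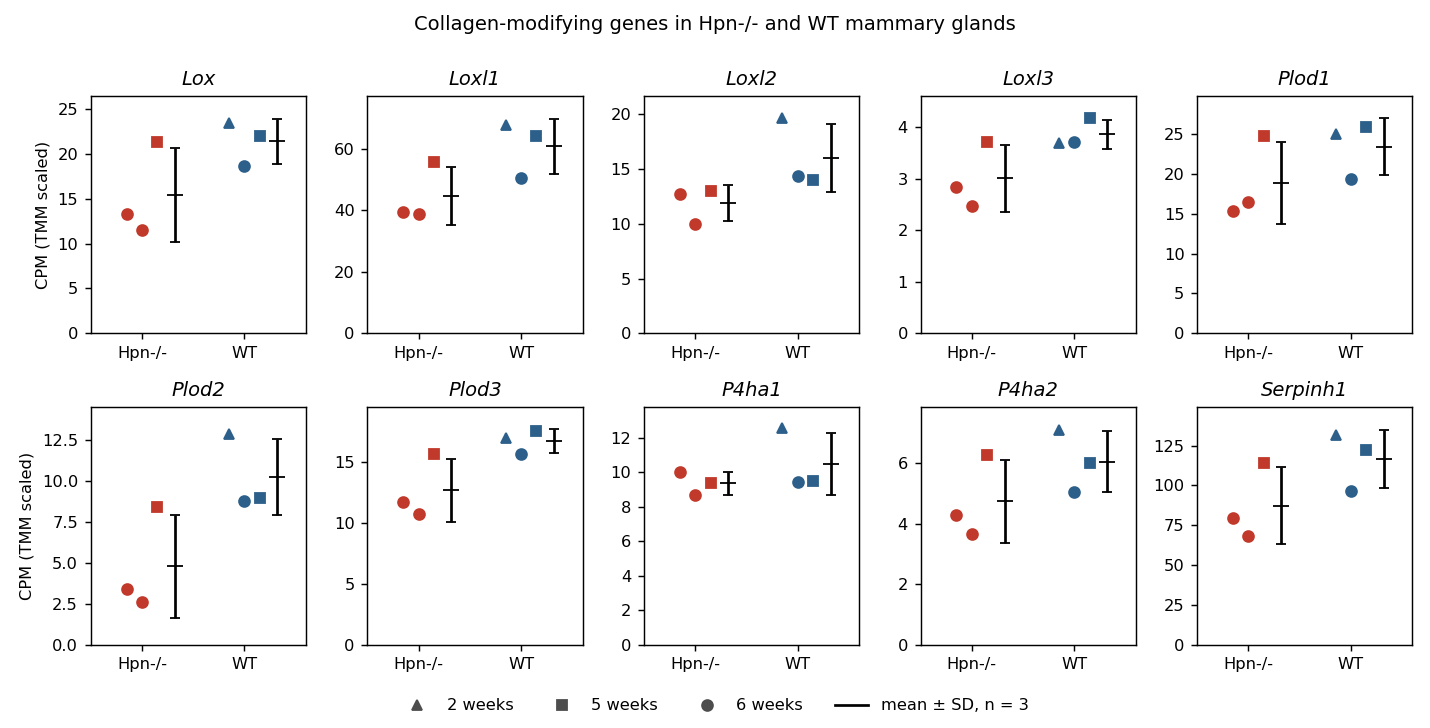
Level of each of the 10 genes in CPM (linear axis from 0) in 3 Hpn-/- and 3 WT libraries, with age by symbol and the mean ± SD beside the points. In 9 genes the circles of the 6-week Hpn-/- glands lie below the 6-week WT circle, and in P4ha1 they lie on both sides of it.

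The oxidases kept close shares of their family in both genotypes. Per length of exon, Loxl1 made up 69.1% ± 1.8 of the summed Lox family in Hpn-/- and 68.9% ± 1.6 in WT glands, Lox 16.2% ± 1.9 in Hpn-/- and 16.8% ± 0.39 in WT glands, and Loxl2 11.4% ± 1.8 in Hpn-/- and 11.1% ± 1.5 in WT glands (SD, n = 3 each). The differences in share of Loxl1 and Loxl2 were smaller than the SD of either genotype, and that of Lox was smaller than the SD in Hpn-/- glands but larger than that in WT glands. Across all 10 genes the levels spanned a wide range. Serpinh1 stood at 35.8 ± 9.8 CPM per kb of exon in Hpn-/- and 47.8 ± 7.4 in WT glands, and Loxl1 at 13.5 ± 2.9 in Hpn-/- and 18.4 ± 2.8 in WT glands. The order from Serpinh1 to Loxl1 to Lox held in 6 of 6 libraries. Below them came Lox, Plod3, Plod1, Loxl2 and P4ha1, from 2.20 to 3.23 CPM per kb in Hpn-/- and from 2.55 to 4.48 in WT glands. Plod2 followed with 0.884 ± 0.584 CPM per kb in Hpn-/- and 1.89 ± 0.428 in WT glands. P4ha2 had 0.760 ± 0.219 in Hpn-/- and 0.972 ± 0.164 in WT glands, and Loxl3 had 0.654 ± 0.140 in Hpn-/- and 0.840 ± 0.0600 in WT glands. Plod3 exceeded Plod1 in 4 of 6 libraries, the exceptions being Hpn-/- replicates 2 and 3. Loxl2 exceeded P4ha1 in 4 of 6 and Plod2 exceeded P4ha2 in 4 of 6, the exceptions in both cases being the 6-week Hpn-/- libraries.

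The genotypes were also set side by side at matched ages. At 6 weeks both Hpn-/- libraries were below the WT library for 9 of 10 genes, the exception being P4ha1, against 33.5% of all genes. Plod2 stood at 38.3% and 29.2% of the 6-week WT level in Hpn-/- replicates 1 and 2. Lox stood at 71.3% and 61.7%, Loxl1 at 78.0% and 77.1%, Plod3 at 75.0% and 68.4% and Serpinh1 at 82.2% and 70.9%. At 5 weeks the Hpn-/- library was below the WT library for 9 of 10 genes, the exception being P4ha2, against 50.1% of all genes. The values there lay close to those of WT, from 86.8% for Loxl1 to 104% for P4ha2, with Plod2 at 93.5% and Lox at 97.2%. One WT library stands behind each age, so these ratios carry no error.

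The calls depended on the 5-week Hpn-/- library. Without it, Plod2 was lower with a log2 fold change of -1.77 ± 0.223 (standard error; adjusted p = 6.12e-05), as were Lox at -0.79 ± 0.156 (standard error; adjusted p = 0.00932), Loxl1 at -0.64 ± 0.158 (standard error; adjusted p = 0.0402) and Serpinh1 at -0.66 ± 0.172 (standard error; adjusted p = 0.0497). In that fit 4 of 10 members were called lower, against 0.859% of all genes. Plod3 (-0.58, adjusted p = 0.0535) and Plod1 (-0.57, adjusted p = 0.0621) did not pass. The fit sets Hpn-/- mice of 6 weeks against WT mice of 2, 5 and 6 weeks, so that genotype and age cannot be told apart in it. Without the 2-week WT library no member passed, and the median log2 fold change was -0.34. With the 5- and 6-week libraries and age as a covariate it was -0.28, with Plod2 at -0.82 ± 0.320 (standard error; adjusted p = 0.793) and P4ha1 at -0.01 ± 0.162 (standard error; adjusted p = 0.998).

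**Figure D2:**
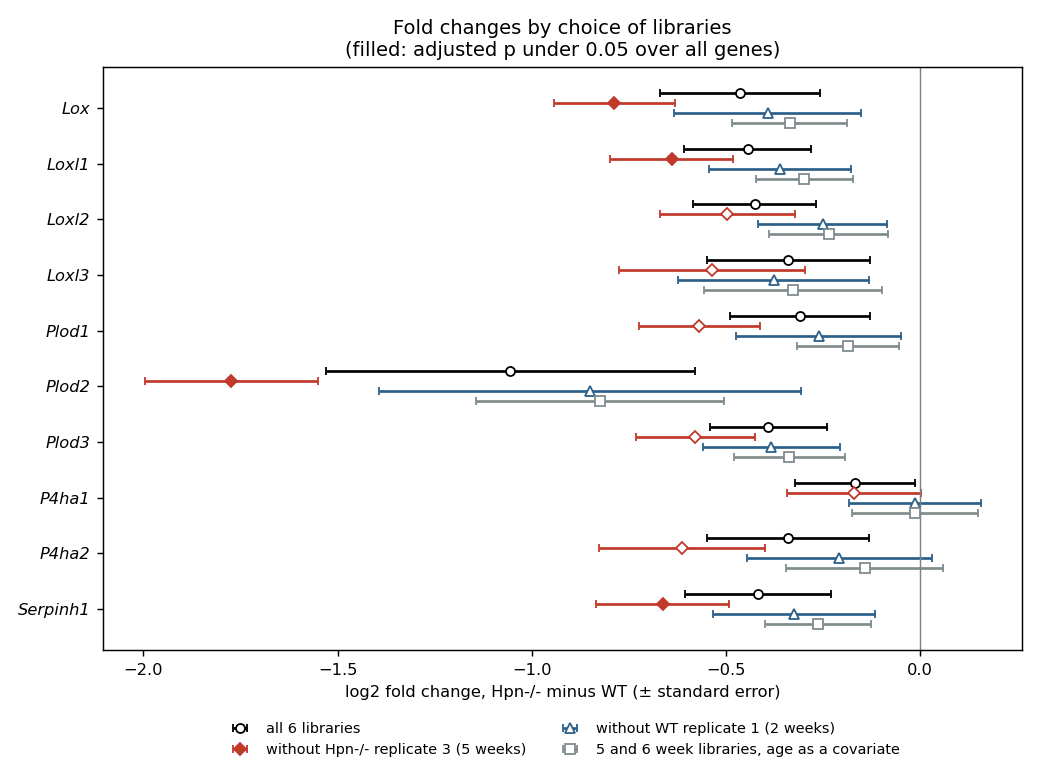
Log2 fold change (Hpn-/- minus WT) ± standard error of each gene for 4 choices of libraries, with filled symbols where the adjusted p was under 0.05. Every point lies below 0, and the filled symbols (Lox, Loxl1, Plod2 and Serpinh1) belong to the fit without the 5-week Hpn-/- replicate 3.

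Members were set beside the collagen transcripts that these enzymes act on. The summed level of Col1a1, Col1a2 and Col3a1 was 1685, 1920 and 2788 CPM in Hpn-/- replicates 1, 2 and 3, against 3447, 2504 and 3197 CPM in WT replicates 1, 2 and 3. Serpinh1 had 4.71, 3.57 and 4.10 CPM per 100 CPM of collagen I and III transcripts in Hpn-/- libraries, against 3.81, 3.85 and 3.82 in WT libraries. Loxl1 had 2.34, 2.03 and 1.99 in Hpn-/- libraries, against 1.96, 2.01 and 2.00 in WT libraries. For both genes the WT libraries of 2, 5 and 6 weeks gave nearly one value, although their collagen sums differed. Relative to its mean, every other member varied more among WT libraries. Loxl2, for example, ran from 0.437 to 0.575 and Loxl3 from 0.107 to 0.149. Plod1 had 0.885 ± 0.025 in Hpn-/- and 0.769 ± 0.042 in WT glands (SD, n = 3 each). Its groups did not overlap on this ratio, but the share of all genes for which that held was not determined. Nothing particular to Plod1 can therefore be read from it. Plod2 was the member with a lower mean ratio in Hpn-/- glands, 0.211 ± 0.084 against 0.335 ± 0.0485 in WT glands (SD, n = 3 each), with overlapping groups. The other 9 had Hpn-/- means 1.02 to 1.33 times those of WT. The collagen sum was itself lower in Hpn-/- replicates 1 and 2 than in any WT library. A ratio therefore rises for any gene that fell less than the collagen sum. The higher ratios are not higher levels, since every member had a lower mean CPM in Hpn-/- glands. None of these ratios was tested.

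**Figure D3:**
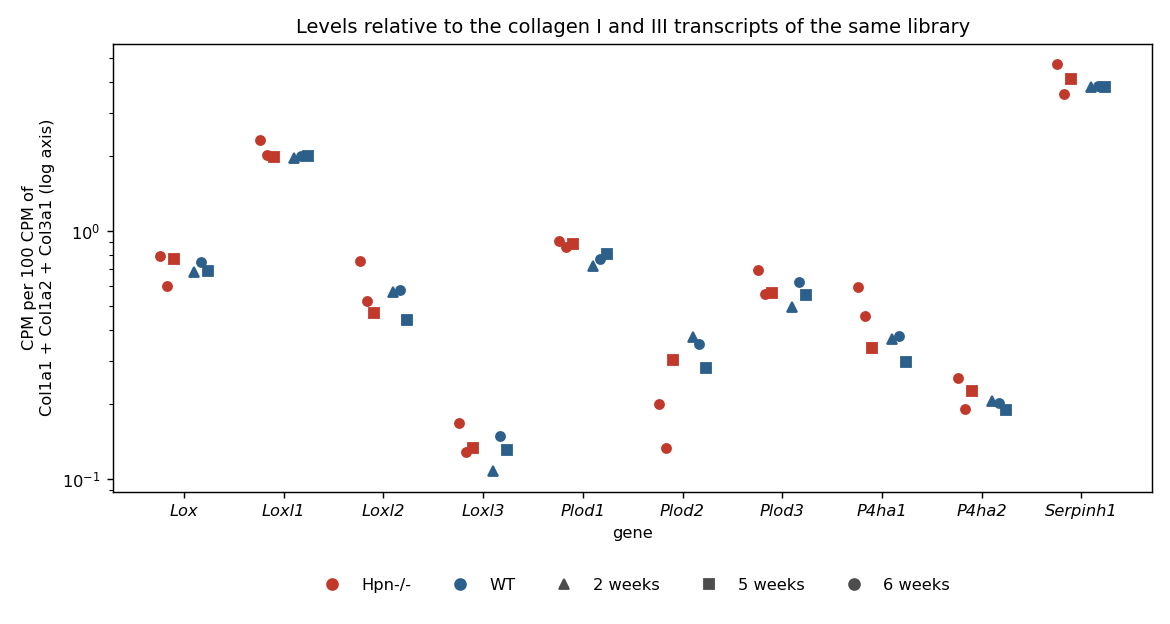
Level of each gene per 100 CPM of Col1a1, Col1a2 and Col3a1 in the same library (log axis), for 3 Hpn-/- and 3 WT libraries with age by symbol. Serpinh1 and Loxl1 are nearly level across WT libraries (3.81 to 3.85 and 1.96 to 2.01), whereas the other genes vary more there. Plod2 is lowest in the 6-week Hpn-/- libraries.

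Other genes of the pathway had the same sign in most cases. Of 15 other genes for collagen modification and folding, 12 were lower and 3 higher, 0 were called and the median log2 fold change was -0.24. Fkbp10, a proline isomerase that acts with the lysyl hydroxylases, averaged 6.26 ± 2.58 CPM in Hpn-/- and 9.79 ± 1.01 CPM in WT glands (SD, n = 3 each; log2 fold change -0.62 with a standard error of 0.239, adjusted p = 0.635). P3h1 and P3h3, of a separate family of prolyl hydroxylases, were at -0.47 (adjusted p = 0.775) and -0.38 (adjusted p = 0.780). Sparc, a collagen-binding protein and the most abundant of this list, was at -0.24 (adjusted p = 0.898). Without Hpn-/- replicate 3, 3 of the list were called lower, against 0.859% of all genes, and 0 higher. They were P4ha3, the prolyl hydroxylase alpha subunit outside the members (-1.94, adjusted p = 0.0184), Fkbp10 (-1.01, adjusted p = 0.00574) and P3h1 (-0.86, adjusted p = 0.0254).

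Of 10 genes for procollagen processing 8 were tested, of which 5 were lower and 3 higher, with a median of -0.20. Adamts2, the procollagen N-proteinase and most abundant of the list, was at -0.47 (33.3 ± 5.78 CPM in Hpn-/- and 46.0 ± 5.58 CPM in WT glands, SD, n = 3 each, adjusted p = 0.508). Bmp1, the C-proteinase that also activates pro-lysyl oxidase, was at -0.34 (adjusted p = 0.635). Pcolce2, an enhancer of that protease, went the other way at 0.64 (adjusted p = 0.640). Of 10 tested fibrillar collagen chains 9 were lower, with a median of -0.34. Among them Col5a1 was at -0.55 (adjusted p = 0.533), Col1a2 at -0.53 (adjusted p = 0.635) and Col3a1, the most abundant, at -0.50 (adjusted p = 0.640). Of 13 elastic fibre genes 8 were lower, with a median of -0.30. Efemp2, which helps bring lysyl oxidase to elastin, was at -0.50 (adjusted p = 0.512). Mfap2, of the microfibrils, was at -0.63 (adjusted p = 0.621) and Fbn1, the most abundant, at -0.45 (adjusted p = 0.635). Across these 4 lists edgeR called 0 genes with all 6 libraries, as did DESeq2 and limma-voom. At an unadjusted p under 0.05 in edgeR, 1 gene of the modification list, 2 of the processing list, 5 collagen chains and 5 elastic fibre genes were lower, against 2.9% of all genes, and 2 of the processing list were higher, against 3.98%. Without Hpn-/- replicate 3, 2 genes of the processing list, 4 collagen chains and 3 elastic fibre genes were called lower, against 0.859% of all genes. In the same fit Pcolce2 was called higher (0.88, adjusted p = 0.0192), against 0.689% of all genes.

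Hypoxia-inducible genes did not share the pattern of signs. Of 14 tested, 4 were lower and 10 higher, with 0 called and a median of 0.02 on the log2 scale. At an unadjusted p under 0.05, 1 was lower, against 2.9% of all genes, and 0 were higher, against 3.98%. DESeq2 and limma-voom called 0. Adm, which encodes adrenomedullin, was at -0.84 (1.06 ± 0.495 CPM in Hpn-/- and 1.94 ± 0.379 CPM in WT glands, SD, n = 3 each, adjusted p = 0.635). The oxygen sensor Egln1 was at -0.19 (adjusted p = 0.917) and the glycolytic Aldoa, the most abundant, at 0.21 (adjusted p = 0.910). More than one identifier carries the symbol Aldoa, and the one with more counts was used. The fibroblast markers summed to 343, 337 and 271 CPM in Hpn-/- replicates 1, 2 and 3, against 382, 287 and 282 CPM in WT replicates 1, 2 and 3. All 8 were tested, 5 were lower and 3 higher (median -0.14), and 0 were called by edgeR, DESeq2 or limma-voom. At an unadjusted p under 0.05 in edgeR, 2 of the 8 were lower, against 2.9% of all genes. The 6-week Hpn-/- libraries, lowest in most members, were thus not lowest in this sum. Skeletal muscle markers summed to 859, 213 and 12.9 CPM in Hpn-/- libraries, against 565, 94.1 and 42.0 CPM in WT libraries. The T and B cell markers summed to 69.5, 83.7 and 64.4 CPM in Hpn-/- libraries, against 50.2, 64.4 and 48.6 CPM in WT libraries. Of the muscle markers 1 of 7 was lower and 6 were higher, 0 at an unadjusted p under 0.05. All 9 T and B cell markers were higher, against 50.9% of all genes, 7 of them at an unadjusted p under 0.05, against 3.98%, and 0 were called by edgeR, DESeq2 or limma-voom. The part of cell composition in the lower values was not tested.

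**Figure D4:**
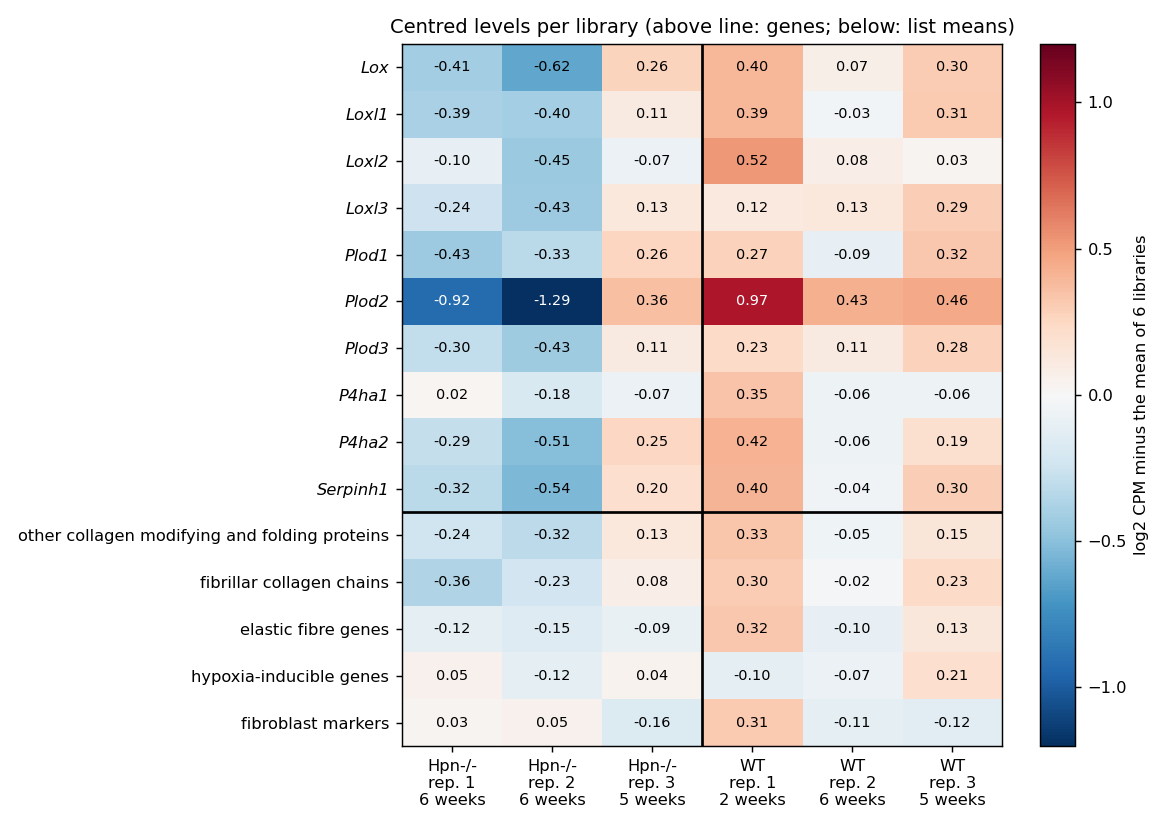
Log2 CPM of each gene (rows above the line) and the mean of each list (rows below it), minus the mean over the 6 libraries, with blue for lower and red for higher. Except for P4ha1 the genes are lowest in the Hpn-/- libraries of 6 weeks, with Plod2 at -0.92 and -1.29, and the fibroblast markers are at 0.03 and 0.05 there.

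The members' profiles were set against their own mean, which each member helps to form. Over the 10 genes the mean centred log2 CPM was -0.34, -0.52 and 0.15 in Hpn-/- replicates 1, 2 and 3, against 0.41, 0.05 and 0.24 in WT replicates 1, 2 and 3. Serpinh1 was nearest to that mean, with a root mean square distance of 0.05 on the log2 scale over the 6 libraries, and Plod2 was farthest at 0.50, followed by P4ha1 at 0.26. Plod2 had larger swings than the mean, and P4ha1 was nearly flat apart from the 2-week WT library. The genes outside the set with the nearest profiles were Arsi (0.04), Rian (0.05), Aplnr (0.06), Col5a1 (0.06) and Cdr2l (0.06). Their log2 fold changes ran from -0.37 to -0.55, and none was called. These genes were picked on the same 6 libraries, so fold changes near those of the members follow from the choice.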

How the data were processed

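Per the labels' protocols, whole-gland RNA was depleted of ribosomal RNA and sequenced as single-end, strand-marking libraries. The authors deposited raw counts of reads per gene, not normalized. STAR 2.6.0c, Trimmomatic, featureCounts and the build GRCm38 are named, per the submitters' processing notes. The sources used here do not give the strand setting, the handling of multi-mapping reads or the annotation. All 55450 identifiers matched GENCODE M21, used for symbols, exon lengths and overlaps.

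Libraries were grouped by genotype in their titles. Each title carries its own identifier and the WT libraries come from mice of 3 different ages. Nothing states outright that both 6-week Hpn-/- libraries are separate animals. The p-values reflect how much libraries of one genotype differ from each other. Libraries of a genotype differed by more than counting noise (chi-square of 6.72 to 32.1 per degree of freedom).

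The count model was edgeR 4.0.16 in R 4.3.3: filterByExpr (minimum count 10, minimum total 15; 12520 genes), TMM, robust quasi-likelihood fit on genotype, Benjamini-Hochberg over all genes, called under 0.05. A standard error is the log2 fold change over the square root of F. Centred levels use log2 CPM with a prior count of 2. On simulated counts for these 12520 genes the test recovered 20% of 1.5-fold and 76% of 2-fold changes, with 10 of 151 calls wrong. The simulation gave every gene the spread of the trend with level and no differences of age or muscle content. Recovery can therefore be lower in the real libraries, above all for genes as variable as Plod2. Alternatives used DESeq2 1.42.0 and limma 3.58.1.

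The members and lists were chosen with earlier results of these data known. Named were all members, from each pathway list the 3 genes of smallest p and the most abundant, and the 5 nearest profiles outside the set, predicted genes left out.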

Additional observations from a re-analysis of the deposited data

Results flagged for a closer look

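For P4ha2, P3h1 and Sparc both Hpn-/- libraries were below the WT library at 6 weeks. At 5 weeks the Hpn-/- library was slightly above the WT library, so the signs at the 2 ages differed. The log2 ratio of Hpn-/- to WT (CPM plus 0.1) at 6 weeks minus that at 5 weeks was -0.40 for P4ha2, -0.72 for P3h1 and -0.22 for Sparc. For P4ha2 the ratio was -0.34 at 6 weeks and 0.06 at 5 weeks, for P3h1 -0.65 and 0.07, and for Sparc -0.15 and 0.07. The 5-week ratios were small and set 1 Hpn-/- library against 1 WT library. With 1 WT library per age, the difference between ages was not tested.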

How the results depend on the processing

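Each of the 10 genes kept a negative log2 fold change under all 16 alternatives, and 0 members were called except without Hpn-/- replicate 3. Over the leave-one-out fits the members called ranged from 0 to 4 and the genes called over all genes from 0 to 200, against 2 with all libraries. It was 0 when Hpn-/- replicate 2, WT replicate 1 or WT replicate 2 was left out. The count of genes called was 100 with no count filter, 8 with DESeq2, 9 with the replicate number as a block, 0 with age as a covariate in 6 libraries and 4 with age in the 5- and 6-week libraries. The cause was not tested. Aldoa ran from -0.0089 (without Hpn-/- replicate 1, a change of sign) to 0.339 (without Hpn-/- replicate 2) in the leave-one-out fits. The median log2 fold change of the members ran from -0.60 to -0.26 over the alternatives, with -0.41 under the block. Same-numbered libraries correlated in their deviations from the group means at 0.17, 0.07 and 0.37, so the numbers were not taken as pairs. Each Hpn-/- library correlated best with its own number, a hint from the data and not from the design. For Hpn-/- replicate 2 the lead was slight, 0.073 against 0.067 with WT replicate 1. The libraries numbered 2 also share an age of 6 weeks, and those numbered 3 an age of 5 weeks. The block changed no call among the members. Depth limits Loxl3 and Plod2 most, with 27 and 28 counts in one library.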
